A study of Mus musculus with 3 samples.

Results

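Cycling cells of the fetal ovarian stroma were taken here as cells that carried at least 1 unique molecular identifier (UMI, the tag that counts 1 captured transcript) of both Tcf21 and Nr2f2, none of Upk3b, fewer than 5 of Dazl, and at least 1 UMI of 2 or more of the 5 cell cycle genes Top2a, Mki67, Ube2c, Ccnb1 and Cdc20. The rule found 2223 such cells among the 28971 that had 200 to 9000 genes and at most 10% mitochondrial UMIs. They numbered 783 of 9711 kept cells in lot 26, 684 of 8553 in lot 29 and 756 of 10707 in lot 30. The members thus made up 8.06%, 7.997% and 7.06% of the kept cells of these lots (mean 7.71% ± 0.561, SD, n = 3 lots). The other 2742 cells of the same gate had UMIs of fewer than 2 of the 5 cycle genes (895, 846 and 1001 cells in lots 26, 29 and 30) and are called the rest of the gate. The gene counts that chose the members are those of the 9 genes in the rule, and the levels of these genes are given without a test.

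All cells came from preparations of fetal ovarian somatic cells (FOSCs) of CD1 mouse embryos at E12.5, the embryonic day. The paper also found germ cells, macrophages, red blood cells and a few contaminating Sertoli cells in the lots. It left the Sertoli cells out, whereas no cell was removed for that identity here. Each lot pooled the ovaries of the litters of 10 pregnant mice after the mesonephros had been cut away. The trypsin-digested ovaries were depleted on magnetic columns of cells that bear SSEA1 or CD31, surface markers of germ and endothelial cells, stored in liquid nitrogen, thawed and profiled by 10X Genomics 3' single-cell RNA sequencing. There was 1 condition and no treatment, so the contrasts lie between classes of cells within the 3 lots, and the lot is the replicate.

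TCF21 is a basic helix-loop-helix factor and NR2F2 (COUP-TFII) an orphan nuclear receptor, and both mark mesenchymal progenitors of the gonad, which give rise to stromal fibroblasts and, later, to theca and other interstitial cells. A cell that enters the cycle first induces the machinery of DNA replication under E2F factors and afterwards the genes of mitosis, many of which are regulated through CCAAT boxes and cell cycle homology regions (CHR) in their promoters. The 5 genes of the rule belong to this later group: Top2a untangles sister chromatids, Mki67 coats mitotic chromosomes, Ccnb1 encodes the cyclin of the mitotic kinase, and Ube2c and Cdc20 serve the anaphase-promoting complex that ends mitosis. UPK3B marks the surface epithelium and DAZL germ cells.

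The 3 count tables held 87494974 to 141920060 UMIs, and lot 29 had the fewest. The median UMIs per member were 12936, 11036 and 13724 in lots 26, 29 and 30, against 8614, 7216.5 and 8930 in the rest of the gate. A member held on average 1.496 ± 0.0408 times the UMIs of a cell in the rest of the gate (1.45, 1.54 and 1.497 times in the 3 lots). Depth thus moved with membership, and a cell that holds more RNA and one that was sampled more deeply cannot be told apart here. Scrublet called 13.0%, 8.92% and 11.6% of the members doublets in lots 26, 29 and 30, against 8.04%, 4.85% and 7.59% of the rest of the gate. The median mitochondrial share was 1.16%, 0.728% and 1.13% in the members and 1.22%, 0.773% and 1.21% in the rest. Between 19 and 30 barcodes of kept cells were shared by any pair of lots, and among the members 1 barcode was. A UMI of a Y-linked gene was seen in 8.56%, 28.2% and 2.38% of the members and in 6.26%, 14.4% and 2.60% of the rest of the gate. In the cycling surface epithelium, defined below, the percentages were 2.48%, 3.06% and 0%. Among these classes the members of lot 29 had the largest share. Cells with such UMIs were kept, and their source was not tested.

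The members bore the markers of their name. Tcf21 stood at 311, 336 and 273 counts per 1000000 UMIs (CPM) in the members of lots 26, 29 and 30 and at 344, 385 and 312 CPM in the rest of the gate. Nr2f2 reached 412, 344 and 391 CPM in the members against 407, 387 and 402 CPM in the rest. The gate asks for both factors in each class, and Tcf21 held a smaller share of the UMIs in the members in 3 of 3 lots while Nr2f2 was mixed. Itga8, an integrin subunit of mesenchymal cells that the rule does not use, had 107, 79.4 and 97.8 CPM in the members and 82.0, 76.6 and 92.6 CPM in the rest of the gate. Its log2 fold change of 0.21 ± 0.11 was not called (edgeR quasi-likelihood test, adjusted p = 0.305), although it was with the lot as a block (adjusted p = 0.0031). After each cell had been thinned to 4000 UMIs, 28.2% ± 2.703 of the members and 25.5% ± 0.845 of the rest held an Itga8 UMI, against 1.20% ± 0.175 of pre-granulosa cells, a type that should lack it (median depth 10515, 8417 and 11094 UMIs before thinning). Lum, a matrix proteoglycan of fibroblasts, was seen in 11.6% of thinned members and 0.977% of pre-granulosa cells, and Col1a1 in 56.1% and 5.30%. Dcn, a second small proteoglycan, did not separate the stroma from the surface epithelium, since 32.3% of thinned members and 45.4% of cycling epithelial cells held a UMI of it. Upk3b was at 0 by the rule, and Dazl at 3.80 CPM in the members and 3.68 CPM in the rest.

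Of the rule's cycle genes, Top2a was the most widely detected among the members, in 90.6% ± 0.834 of them. Ube2c and Mki67 were detected in 83.3% ± 2.55 and 82.0% ± 1.43, with Mki67 the more frequent in 2 of 3 lots. Cdc20 was detected in 63.1% ± 2.82 and Ccnb1 in 57.7% ± 3.37. Top2a stood at 668, 686 and 636 CPM in the members and 24.8, 21.9 and 21.0 CPM in the rest of the gate. Mki67 read 351, 285 and 311 CPM against 4.596, 3.85 and 4.67, and Ccnb1 122, 140 and 136 CPM against 3.22, 2.52 and 2.29. These gaps are what the rule selects and are given as a description. Cdc20 lies on chromosome 4 opposite to Elovl1 (29.3 CPM in the members) and Ube2c on chromosome 2 opposite to Tnnc2 (0.0293 CPM), so that reads of overlapping genes could be mixed if strand was not used in counting.

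The promoters of these genes are shown because the members were chosen by transcripts that rise together in the second part of the cycle. In RefSeq's mouse assembly GRCm38.p6, the 250 bases before the start of Top2a are chr11:99024190-99024439 on the minus strand, those of Mki67 are chr7:135716380-135716629 on the minus strand, and for Cdc20 the 241 bases at chr4:118437353-118437593 on the minus strand that lie outside its annotated transcripts are given. Capitals mark CCAAT (or ATTGG on the other strand) and the CHR letters TTTGAA or TTTAAA (or TTCAAA).
Top2a: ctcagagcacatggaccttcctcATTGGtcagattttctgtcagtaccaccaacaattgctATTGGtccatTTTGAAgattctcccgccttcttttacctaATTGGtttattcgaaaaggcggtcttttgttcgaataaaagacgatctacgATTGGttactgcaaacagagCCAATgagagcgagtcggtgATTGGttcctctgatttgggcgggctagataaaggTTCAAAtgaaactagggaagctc
Mki67: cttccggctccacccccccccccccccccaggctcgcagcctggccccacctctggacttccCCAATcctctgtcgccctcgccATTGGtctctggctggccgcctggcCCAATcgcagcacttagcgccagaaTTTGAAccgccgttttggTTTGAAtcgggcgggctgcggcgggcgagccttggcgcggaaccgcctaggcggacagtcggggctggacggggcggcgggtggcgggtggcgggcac
Cdc20: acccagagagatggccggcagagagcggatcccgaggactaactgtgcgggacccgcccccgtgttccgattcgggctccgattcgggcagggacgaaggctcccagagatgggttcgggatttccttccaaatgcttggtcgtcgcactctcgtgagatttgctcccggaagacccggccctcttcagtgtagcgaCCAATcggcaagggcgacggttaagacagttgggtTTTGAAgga

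Within 250 bases before the RefSeq start, CCAAT occurred 6 times at Top2a and Ube2c, 3 times at Mki67 and 2 times at Ccnb1 and Cdc20, and each of the 5 promoters held 1 or 2 CHR matches. None of them held the E2F letters searched (TTTCGCGC, TTTGGCGC, TTTCCCGC or TTTGCCGC, either strand). The last 31 of these bases at Ube2c, 84 at Ccnb1 and 9 at Cdc20 lie inside the gene as GENCODE places it. The only CHR match of Ube2c and of Ccnb1 lies there, as does 1 of the 2 CCAAT of Ccnb1 and of Cdc20. Over 32851 RefSeq promoters of the same length, 33.9% held a CCAAT, 25.2% a CHR match, 8.78% both and 1.86% an E2F match. Of 64 other G2/M genes, 54 had a promoter in the table, and 40 of these (74.1%) held a CCAAT, 21 (38.9%) a CHR match, 19 (35.2%) both and 2 an E2F match. Of 55 genes of DNA replication, 41 had one, and 24 (58.5%) held a CCAAT, 7 (17.1%) a CHR match and 10 (24.4%) an E2F match. A match of letters is a description and does not show that a factor binds there.

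The first question was what share of the stroma was cycling by the rule. Its 5 genes belong to the later part of the cycle, so cells earlier in the cycle can count in the rest. In lot 26, 46.7% of the gated cells were cycling by the rule (Clopper-Pearson 95% interval 44.3 to 49.1), in lot 29 44.7% (42.2 to 47.2) and in lot 30 43.0% (40.7 to 45.4), with a mean of 44.8% ± 1.82 (SD, n = 3 lots). The intervals cover counting error only. The surface epithelium, gated as cells with Upk3b and without Tcf21, gave 45.5%, 45.4% and 46.1%, and pre-granulosa cells, gated by Wnt6 and Wnt4 without Tcf21 and Upk3b, gave 13.6%, 9.50% and 13.2%. Cells of these gates differ in depth, so the cycle genes were also counted after thinning every cell to 4000 UMIs, which left out 9, 36 and 22 shallower stromal cells in the 3 lots. The stroma then had 34.0%, 35.1% and 32.4%, the epithelium 30.6%, 34.4% and 29.3%, and pre-granulosa cells 6.05%, 5.34% and 5.52%. The stromal share stood above that of pre-granulosa cells by 28.2 ± 1.44 percentage points and above that of the epithelium by 2.42 ± 1.497 points, each higher in 3 of 3 lots. The paired exact permutation test over lots gave p = 0.25 for both (two-sided, adjusted p = 0.333 over 8 comparisons of shares), which is the smallest p that 3 lots allow.

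**Figure D1:**
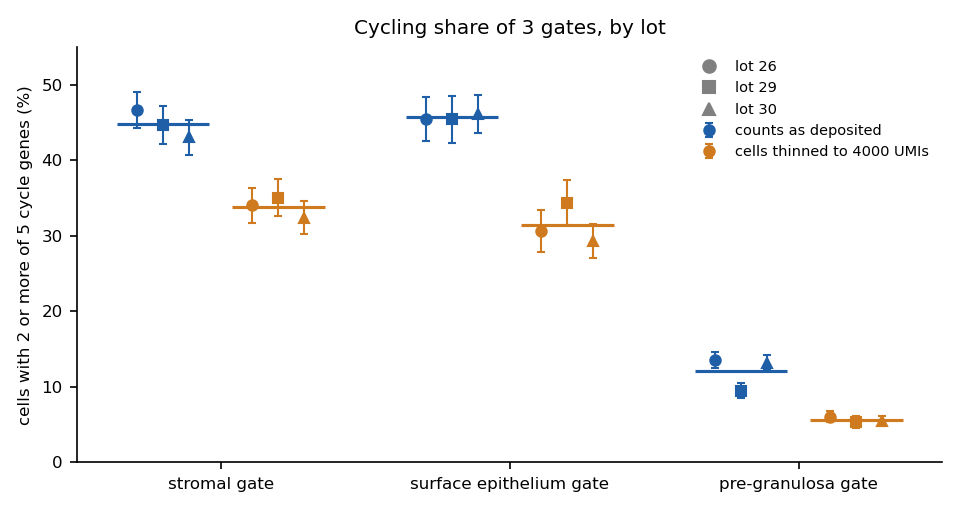
Percent of cells with 2 or more of the 5 cycle genes in the stromal, surface epithelium and pre-granulosa gates. Each point is a lot with its Clopper-Pearson 95% interval, bars are means of 3 lots, and the colour tells counts as deposited from cells thinned to 4000 UMIs. The stroma and the epithelium lie between 29.3% and 46.7% on the 2 scales, and pre-granulosa cells between 5.34% and 13.6%.

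Within the stromal gate, the thinned cycling share was compared between cells with and without a UMI of genes that mark kinds of stroma. It was 37.7% ± 3.06 in cells with Itga8 and 32.4% ± 1.05 in those without it, a difference of 5.23 ± 2.66 points that had the same sign in 3 of 3 lots. Cells with Acta2, the smooth muscle actin, exceeded those without it by 5.52 ± 4.59 points, and cells with Gli1 or Ptch1, targets of hedgehog signalling, by 3.77 ± 3.27 points, again in 3 of 3 lots. The order was the other way round for Foxd1 or Dkk2, where cells with a UMI were lower by 4.94 ± 4.398 points in 3 of 3 lots. For each of these 4 splits the paired exact permutation test gave p = 0.25 (adjusted p = 0.333), its smallest value. Lum or Dcn and Pdgfra gave differences of mixed sign over the lots (-2.62 ± 4.26 and -0.456 ± 3.53 points).

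Members differed in how many of the cycle genes they held. Those with UMIs of exactly 2, 3, 4 and 5 cycle genes made up 22.4%, 18.6%, 18.8% and 40.1% of the members (means of 3 lots), against 23.4%, 15.5%, 18.7% and 42.5% in the cycling epithelium. At the edge of the rule, the 500 cells with exactly 2 cycle genes held 2101, 2663 and 1932 CPM of the 64 other G2/M genes summed in lots 26, 29 and 30, and the 1020 cells with 1 cycle gene, just outside it, held 1125, 1260 and 1109 CPM. The 892 cells with all 5 genes held 13882, 14483 and 12932 CPM. The G2/M sum thus climbed at every step, from 884 CPM with 0 cycle genes to 13766 CPM with 5 (means of 3 lots). The 55 genes of DNA replication took another course. Their sum was 2462 CPM at 0 cycle genes, 3347 at 1, 4770 at 2, 6002 at 3 and 3503 at 5, and it peaked at 3 genes in every lot. Ccnd1, the cyclin D that opens the cycle, was highest at 2 cycle genes in all 3 lots (68.2, 75.9 and 72.2 CPM) and lowest at 5 (33.8, 38.7 and 30.9 CPM). Ccnd2 read 476 CPM at 0 cycle genes, 435 at 2 and 270.2 at 5, and Cdkn1c, the CDK inhibitor p57, 1414, 1381 and 959 CPM. Cdkn1b, the inhibitor p27, lay between 39.7 and 41.8 CPM from 0 to 4 cycle genes and at 61.0 CPM with all 5 (means of 3 lots). In single lots it spanned 29.5 to 50.9 CPM from 0 to 4 cycle genes, and stood at 60.7, 59.9 and 62.5 CPM in cells with all 5. Median depth moved with this order, from 7804 UMIs at 0 genes to 14377 at 5, and its part in the order was not tested.

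**Figure D2:**
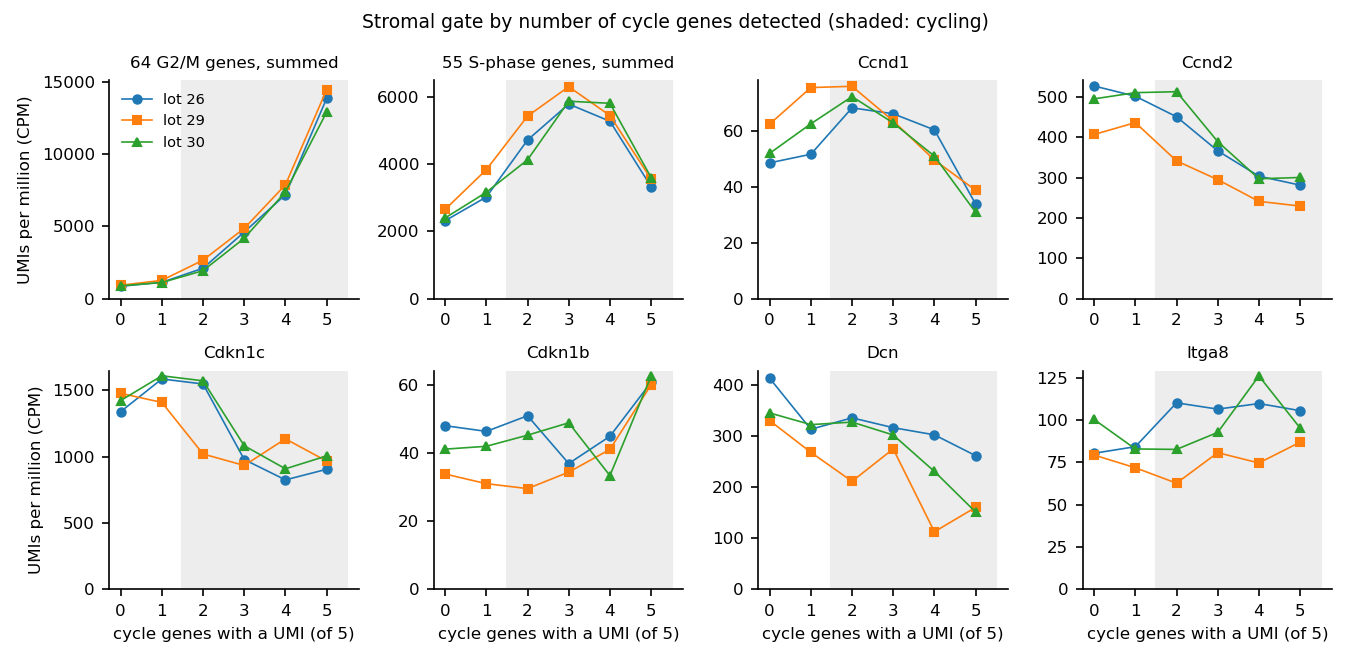
Summed level of 64 G2/M genes and 55 S-phase genes and the levels of 6 single genes (CPM, linear axes) in cells of the stromal gate with 0 to 5 of the rule's cycle genes. Each line is a lot and the shaded area holds the members. The G2/M sum is highest at 5 genes, the S-phase sum at 3 and Ccnd1 at 2 in each lot.

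Members with UMIs of both Ccnb1 and Cdc20, late mitotic genes, numbered 326, 306 and 363 (44.8% ± 3.19), and members with neither numbered 208, 169 and 156 (24.0% ± 3.03). The former held 13250 ± 819 CPM of the G2/M genes and 3510 ± 167 CPM of the replication genes, and the latter 3629 ± 404 and 5972 ± 709 CPM (means ± SD of 3 lots). Plk1, the polo kinase of mitosis, was at 171 ± 10.5 CPM in the former and 15.97 ± 2.83 CPM in the latter. Mcm6, a subunit of the replicative helicase, and Pcna, the polymerase clamp, ran the other way, with 97.4 ± 11.2 and 25.9 ± 4.39 CPM against 248 ± 25.2 and 63.2 ± 4.95 CPM. The 2 stromal factors differed little between these members, Tcf21 with 304 ± 24.1 and 316 ± 42.6 CPM and Nr2f2 with 395 ± 33.4 and 376 ± 30.8 CPM. The median depths were 13970 and 10980 UMIs.

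The second question was what else differed between the members and the rest of the gate. Summed UMIs per class and lot were compared with edgeR over 12575 genes, from which the 9 rule genes were left out. Against this background 750 genes (5.96% of those tested) were higher and 218 (1.73%) lower in the members at an adjusted p under 0.05. With the lot as a block, which fits the design since both classes of a lot come from 1 pool, the counts were 2293 (18.2%) and 1914 (15.2%). Of the 750 genes that were higher, 123 belong to the lists of G2/M, replication and chromatin genes described next, and 627 do not. Without lot 26 the test called 416 genes higher and 20 lower, without lot 29 592 and 132, and without lot 30 413 and 14.

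Genes of the cycle travel with the genes that chose the cells, so their values are given without a test. All 64 other G2/M genes had a positive fold change, with a median log2 fold change of 3.84, against -0.01 over all genes tested. Hmmr, a spindle assembly factor, had 152, 155 and 145 CPM in the members and 2.30, 2.96 and 2.09 CPM in the rest. Nusap1 and Prc1, which bundle spindle microtubules, averaged 203 ± 11.3 against 4.15 ± 0.402 CPM and 292 ± 26.2 against 6.53 ± 1.05 CPM, and Cdca2 60.5 ± 5.06 against 1.56 ± 0.0686 CPM. The replication list had a median log2 fold change of 0.82. Its largest differences included those of Brip1, a helicase of DNA repair, with 24.8 ± 1.62 against 5.01 ± 1.58 CPM, the thymidine kinase Tk1 with 120.0 ± 3.73 against 27.0 ± 2.79 CPM, and the replication factor Mcm10 with 23.2 ± 2.35 against 5.84 ± 1.13 CPM. Mcm6 went without this shift, at 160, 165 and 158 CPM in the members and 166, 191 and 170.3 CPM in the rest, and Ung, which removes uracil from DNA, was lower in the members at 28.2 ± 0.820 against 40.4 ± 3.02 CPM.

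Among 28 chromatin and tubulin genes the median log2 fold change was 0.90. The histone H2afx read 612, 797 and 623 CPM in the members and 92.0, 126 and 112 CPM in the rest, and the chromatin protein Hmgb2 1265, 1366 and 1164 against 196, 218 and 202 CPM. Tubb4b and Tuba1c, tubulins of the spindle, averaged 458 ± 31.2 against 103 ± 14.3 CPM and 57.7 ± 7.92 against 14.8 ± 5.09 CPM. Outside the lists, the 10 largest differences by the naming rule included the mitotic kinesin Kif14 (20.8 ± 1.48 against 0.340 ± 0.219 CPM), the kinetochore scaffold Casc5 (93.6 ± 2.99 against 2.59 ± 0.341 CPM), Mxd3 of the MYC/MAX network, the glycosylase Neil3, the midbody protein Cep55 and the replication-dependent histones Hist1h2af, Hist1h3b, Hist1h2ab, Hist1h3c and Hist1h2ah. Hist1h2ab stood at 856, 545 and 480.1 CPM in the members and 30.8, 30.7 and 19.7 CPM in the rest. Histone genes of these clusters are near copies of each other, so the split of reads among them is uncertain.

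Of 19 tested genes among the CDK inhibitors, D cyclins and retinoblastoma family, 4 were higher and 3 lower in the members (8 and 8 with the lot as a block). The shares over all genes tested were 5.96% and 1.73%, and 18.2% and 15.2% with the block. Genes of this family that vary over the cycle can also travel with the genes that chose the cells. Their p-values are therefore not independent of the rule. Cdkn2d, the INK4 inhibitor p19, read 46.9, 50.4 and 48.9 CPM in lots 26, 29 and 30 of the members and 17.7, 20.3 and 20.4 CPM in the rest. The log2 fold change was 1.36 ± 0.10 (edgeR, adjusted p = 1.8e-05). Ccng2, an atypical cyclin tied to cell cycle arrest, had 34.0, 31.4 and 33.9 CPM against 24.1, 15.6 and 19.6 CPM, a log2 fold change of 0.77 ± 0.14 (adjusted p = 0.0072). Without lot 30 its adjusted p was 0.104. The other 2 genes that were higher, named after their values had been seen, were the INK4 inhibitor Cdkn2c (5.16 ± 0.547 against 0.440 ± 0.253 CPM, adjusted p = 1.2e-04) and the pocket protein Rbl1 (18.9 ± 1.10 against 8.55 ± 1.46 CPM, adjusted p = 6.1e-04), below the level of 20 CPM that the naming rule asks for.

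The 3 lower genes of that family were Cdkn1a, Cdkn1c and Ccnd2. Cdkn1a, the inhibitor p21, had 18.6, 21.9 and 23.6 CPM in the members and 33.7, 32.0 and 37.8 CPM in the rest (log2 fold change -0.66 ± 0.12, adjusted p = 0.0091). Cdkn1c had 1049, 1002 and 1110 CPM against 1446, 1454 and 1507 CPM (-0.45 ± 0.08, adjusted p = 0.0098), and Ccnd2, another D cyclin, 338, 262 and 354 CPM against 516, 417 and 502 CPM (-0.56 ± 0.12, adjusted p = 0.017). In each of the 3 genes the members were lower in 3 of 3 lots. The adjusted p of Cdkn1a was 0.0826 without lot 26, 0.0803 without lot 30, 0.0735 when the rule was applied to thinned counts and 0.12 with 2 UMIs each of Tcf21 and Nr2f2. That of Cdkn1c was 0.128 without lot 26 and 0.121 without lot 30, and that of Ccnd2 0.166 and 0.104. Counted per cell, Cdkn1c was at 14.6 UMIs in a member and 13.6 in a cell of the rest, and Ccnd2 at 4.44 and 4.47 UMIs.

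**Figure D3:**
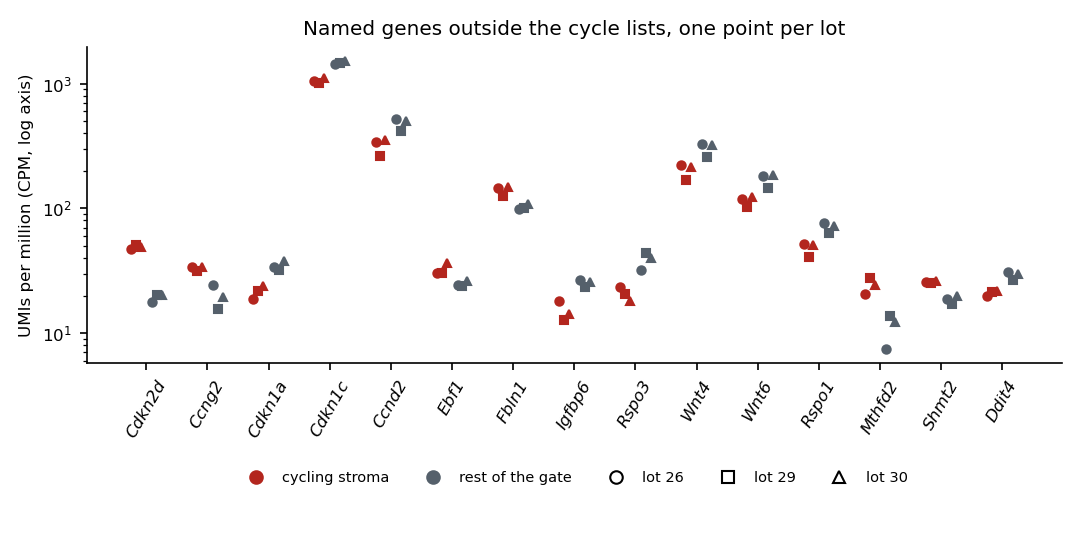
Levels of 15 named genes outside the cycle lists in the members and in the rest of the stromal gate (CPM, log axis), with 1 point for each lot. The members are higher in 6 genes (Cdkn2d, Ccng2, Ebf1, Fbln1, Mthfd2 and Shmt2) and lower in 9, and the naming rule itself asked for a called difference with the same sign in 3 of 3 lots.

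The lists of stromal identity are set beside the shares over all genes tested. Those were 5.96% higher and 1.73% lower, and 18.2% and 15.2% with the lot as a block. Of 52 tested transcription factors of gonadal mesenchyme, 1 was higher and 1 lower (5 and 15 with the lot as a block). The higher one, Ebf1, had 30.2, 30.5 and 36.6 CPM against 24.1, 24.0 and 25.9 CPM (0.43 ± 0.10, adjusted p = 0.035). Its direction turned, to -0.40, when the rule was applied to thinned counts, and it lost the call without any 1 of the lots.

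Of 62 matrix genes, 1 was higher and 1 lower (8 and 19 with the block). Fbln1, the basement membrane protein fibulin, read 146, 127 and 149 CPM in the members and 98.8, 101 and 107 CPM in the rest (log2 fold change 0.49 ± 0.09, adjusted p = 0.0069). Its adjusted p was 0.132 without lot 26 and 0.117 without lot 30. Ogn, a small proteoglycan named after its values had been seen, averaged 7.59 ± 2.05 against 14.3 ± 1.58 CPM (adjusted p = 0.018, but 0.117 without lot 29 and 0.13 without lot 30). Dcn had 295, 181 and 221 CPM in the members and 371, 308 and 336 CPM in the rest. It was not called without the block (adjusted p = 0.073) and was with it (2.9e-11). Pdgfra, the receptor for platelet-derived growth factor on stromal progenitors, was at 175 ± 31.6 and 208 ± 33.3 CPM, and the collagen Col1a1 at 339 ± 91.5 and 383 ± 61.4 CPM, neither called without the block (adjusted p = 0.484 and 0.69). Both were lower in the members within 3 of 3 lots, and with the block both were called (log2 fold change -0.21, adjusted p = 8.2e-05, and -0.16, adjusted p = 0.0016).

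In the WNT list of 21 tested genes, 4 were lower and 0 higher (9 and 0 with the block; 0 higher at an unadjusted p under 0.05 and by DESeq2). For all genes tested the shares were 1.73% lower and 5.96% higher, and 15.2% and 18.2% with the block. Rspo3, a secreted amplifier of WNT signals, had 23.6, 20.4 and 18.1 CPM in the members and 32.0, 43.9 and 39.7 CPM in the rest (log2 fold change -0.86 ± 0.15, adjusted p = 0.0061). Its adjusted p was 0.0577 without lot 29, 0.103 without lot 30 and 0.126 in cells of 8000 to 20000 UMIs. Wnt4, the WNT ligand of the ovarian programme, had 221, 168 and 213 CPM against 327, 259 and 323 CPM (-0.57 ± 0.11, adjusted p = 0.016, but 0.125 without lot 26 and 0.153 without lot 30). Wnt6 and Rspo1 averaged lower as well, with log2 fold changes of -0.54 ± 0.11 (adjusted p = 0.013) and -0.52 ± 0.10 (0.0097), and both lost the call without lot 26 or lot 30. Wnt4, Wnt6 and Rspo1 are also in the list of pre-granulosa markers, of whose 11 tested genes these 3 were lower and 0 higher (10 and 0 with the block), with a median log2 fold change of -0.51. By edgeR at an unadjusted p under 0.05 and by DESeq2, 0 of them were higher. The summed level of all 12 pre-granulosa markers was 1036, 697 and 950 CPM in the members and 1555, 990 and 1369 CPM in the rest, against 5028 CPM in the pre-granulosa gate. Foxl2, the defining factor of pre-granulosa cells, was at 0.527 and 0.939 CPM in the 2 stromal classes. After thinning, a Foxl2 UMI was seen in 0.173% of the members, 0.296% of the rest and only 2.27% ± 0.803 of the pre-granulosa gate. Its low level in the stroma therefore says little. Whether transcripts of pre-granulosa markers come from the stromal cells themselves, from free RNA or from doublets was not tested.

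Signalling lists other than WNT gave few calls without the block, as did all genes tested (5.96% higher and 1.73% lower). With the block the shares over all genes were 18.2% and 15.2%. Of 13 tested genes of the insulin-like growth factor axis, 1 was lower, the binding protein Igfbp6, with 18.0, 12.8 and 14.1 CPM against 26.4, 23.4 and 25.6 CPM (log2 fold change -0.72 ± 0.12, adjusted p = 0.0071). That call was lost without lot 30 (adjusted p = 0.122) and in cells of 8000 to 20000 UMIs (0.125). Of 10 tested NOTCH genes 2 were higher, the target genes Heyl (14.0 ± 3.26 against 6.66 ± 0.647 CPM, adjusted p = 0.004) and Nrarp (2.09 ± 0.582 against 0.664 ± 0.421 CPM, adjusted p = 0.046), both below 20 CPM and named after their values had been seen. Heyl lost its call without lot 26 (adjusted p = 0.0823) and without lot 30 (0.07), and Nrarp without lot 26, 29 or 30 (0.082, 0.145 and 0.333). edgeR called 0 of 12 hedgehog, 0 of 5 PDGF, 0 of 13 FGF, 0 of 23 BMP and TGF-beta and 0 of 16 contractile and angiotensin genes in either direction. At an unadjusted p under 0.05 these lists had 0, 0, 1, 0 and 2 genes higher and 0, 1, 1, 3 and 2 lower, DESeq2 called 0 higher and 0, 0, 0, 2 and 2 lower, and the block called 2, 1, 1, 2 and 5 higher and 2, 2, 2, 7 and 4 lower.

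The next 2 lists stand beside 5.96% higher and 1.73% lower over all genes tested, and 18.2% and 15.2% with the block. Of 28 genes of ribosome biogenesis and growth 2 were higher and 0 lower (14 and 3 with the block; 2 lower at an unadjusted p under 0.05 and 0 by DESeq2). Mthfd2 and Shmt2, enzymes of mitochondrial folate metabolism, were these. Mthfd2 had 20.8, 27.9 and 24.3 CPM in the members and 7.47, 13.6 and 12.3 CPM in the rest (log2 fold change 1.17 ± 0.22, adjusted p = 0.011, but 0.0826 without lot 30 and 0.121 on thinned counts). Shmt2 had 25.8, 25.2 and 25.9 CPM against 18.7, 17.2 and 19.8 CPM (0.50 ± 0.10, adjusted p = 0.013), and lost its call without any 1 of the lots. Of 24 immediate early and stress genes 1 was lower and 0 higher (18 and 1 with the block; 0 higher at an unadjusted p under 0.05 and 0 in either direction by DESeq2). This was the mTOR inhibitor Ddit4, with 19.8, 21.2 and 21.8 CPM against 30.9, 26.5 and 30.0 CPM (-0.45 ± 0.10, adjusted p = 0.028), which lost its call without lot 26 or lot 30. The summed level of these genes varied more between lots than between classes, with 5540, 7659 and 13731 CPM in the members and 6251, 8863 and 16085 CPM in the rest.

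Outside all lists, the lowest log2 fold changes by the naming rule were those of Cryge, Ctsf, Calb1, Ypel2, Tceal6, B3gnt9, Pbxip1, Etnk2, Alkbh2 and Cpa1, from -0.98 to -0.69. The lysosomal protease Ctsf had 16.97, 12.9 and 17.1 CPM in the members and 29.4, 27.4 and 27.9 CPM in the rest (-0.81 ± 0.11, adjusted p = 0.0015). The calcium-binding protein Calb1 had 19.7, 31.2 and 33.7 CPM against 52.1, 40.9 and 58.8 CPM (-0.81 ± 0.20, adjusted p = 0.039). Of these 10 genes, 4 kept the call without lot 26, 8 without lot 29, 6 without lot 30 and 3 when the rule was applied to thinned counts, and Calb1 lost it without any 1 of the lots.

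Level relative to all UMIs and level per cell gave different pictures of the genes that were lower. The 750 genes higher in CPM had more UMIs per cell in the members in 3 of 3 lots, with a median ratio of 2.89. Of the 218 genes lower in CPM, 48 had fewer UMIs per cell in the members in all 3 lots, 66 had more in all 3 lots and 104 were mixed, with a median ratio of 1.02. Wnt4 was at 2.79 UMIs per member and 2.83 per cell of the rest. For Tcf21 the means were 4.21 and 3.18 UMIs per cell, for Nr2f2 5.31 and 3.70, and for Itga8 1.32 and 0.780. A lower share of the UMIs in a member thus often went with a nearly level number of UMIs in the cell. Fewer transcripts per cell and more transcripts of other genes in a larger or deeper cell cannot be told apart from CPM.

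**Figure D4:**
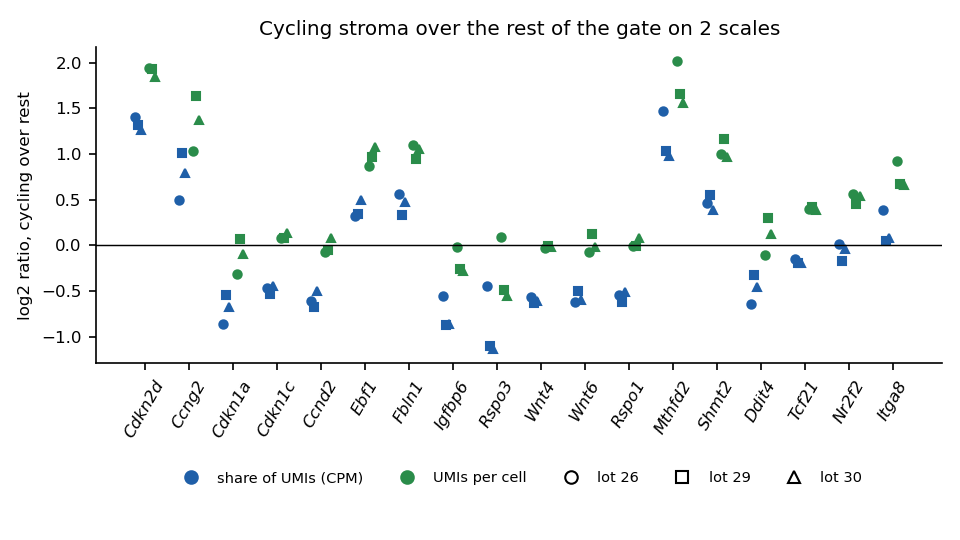
Log2 ratio of the members over the rest of the gate for 18 genes, as a share of UMIs (CPM) and as mean UMIs per cell, with 1 point for each lot. Cdkn1c, Wnt4 and Wnt6 lie below 0 on the CPM scale and close to 0 per cell, and Tcf21 and Nr2f2 lie above 0 per cell in 3 of 3 lots.

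Markers of other cell types were summed in both classes. Their calls stand beside 5.96% higher and 1.73% lower over all genes tested, and 18.2% and 15.2% with the block. The 10 endothelial markers reached 163, 107 and 92.8 CPM in the members and 105, 70.1 and 68.8 CPM in the rest. edgeR called 0 of these 10 (6 higher at an unadjusted p under 0.05, 2 by DESeq2, 9 with the block), and Pecam1, which encodes the CD31 used for depletion, was at 5.90 and 3.69 CPM. Of 7 tested pericyte markers 2 were higher, the potassium channel subunits Kcnj8 (8.65 ± 0.467 against 5.06 ± 0.638 CPM, adjusted p = 0.018) and Abcc9 (3.46 ± 0.225 against 1.57 ± 0.312 CPM, adjusted p = 0.024), while Higd1b was at 0. Both, named after their values had been seen, lost the call without lot 26, 29 or 30 (adjusted p = 0.0826, 0.0862 and 0.24 for Kcnj8 and 0.173, 0.0731 and 0.254 for Abcc9). Red cell markers summed to 85.9, 233 and 791 CPM in the members and 87.3, 149.9 and 93.9 CPM in the rest, so lot 30 of the members stood apart. edgeR called 0 of the 5 tested (3 higher at an unadjusted p under 0.05, 0 by DESeq2, 4 with the block), and their median log2 fold change was 2.05. Surface epithelium markers summed to 297, 304 and 313 CPM against 353, 342 and 377 CPM, and to 1748 CPM in the cycling epithelium. Germ cell markers lay at 38.0 to 58.1 CPM in the members and 40.1 to 61.7 CPM in the rest, and Sertoli markers at 48.4 to 120 and 42.2 to 86.5 CPM. The part of other cells, doublets or free RNA in the results was not tested.

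The third question was whether the difference between cycling cells and the rest of the gate was the same in the stroma as in the surface epithelium. The cycling epithelium numbered 525, 457 and 725 cells and the rest of its gate 629, 549 and 846. Over 13015 genes the interaction of class and cell type was called for 0 genes (0%) in either direction, with 524 genes at an unadjusted p under 0.05 and 0 higher and 1 lower by DESeq2. On simulated data the test without the block recovered 66% of genes changed by a log2 of 1 and 13% of those changed by 0.6. The 0 calls thus do not show that the differences in stroma and epithelium were alike. With the lot as a block the interaction was called higher for 68 genes (0.522%) and lower for 62 (0.476%). Higher means that the log2 fold change, cycling over the rest of the gate, was higher in the stroma than in the epithelium. A higher value can also come from a smaller fall in the stroma, as for Fst. Leading genes with the block included Aprt, C77370, Fst, Tnfaip8, Eva1b, Hs6st2, Lsm3, Hist1h2bl and H2afx. Fst, the activin antagonist follistatin, had 77.1 ± 16.8 CPM in the members and 121 ± 23.4 CPM in the rest of the stroma, and 93.2 ± 21.2 CPM in the cycling and 240 ± 34.8 CPM in the other epithelium (difference of log2 fold changes 0.71 with the block, adjusted p = 0.0017). Cdkn1b had 50.1 ± 3.11 against 40.5 ± 7.29 CPM in the stroma and 46.1 against 61.8 CPM in the epithelium (0.72 with the block, adjusted p = 0.011). Col4a1, a basement membrane collagen, had 295 against 232 CPM and 86.3 against 100.3 CPM (0.55 with the block, adjusted p = 0.017). Without the block these 3 genes, of which Cdkn1b and Col4a1 were picked after their values had been seen, had adjusted p-values of 0.9999.

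Finally the members were set against cycling epithelial cells, which passed the same cycle rule. Over 13015 genes 2220 (17.1%) were higher and 2142 (16.5%) lower in the members, and 3439 (26.4%) and 3612 (27.8%) with the block. Only cycle and growth genes are read here, since the gates choose lineage. The members of this contrast also enter the one with the rest of the gate, so the 2 are not independent. Of the 64 G2/M genes 17 were higher and 1 lower in the stroma (42 and 2 with the block). Gas2l3, which ties actin to microtubules at the end of mitosis, read 27.9, 23.9 and 27.2 CPM in the stroma and 12.9, 10.6 and 9.45 CPM in the epithelium (log2 fold change 1.21 ± 0.18, adjusted p = 1.6e-04). Spc25, a kinetochore subunit, read 208, 227 and 197 CPM against 126, 152 and 102 CPM (0.67 ± 0.15, adjusted p = 0.0038, but 0.0619 without lot 26). The count of higher G2/M genes was 5 without lot 26, 22 without lot 29 and 5 without lot 30. Of 55 replication genes 4 were higher and 5 lower (15 and 10 with the block), and the higher ones numbered 0, 13 and 0 without lot 26, 29 and 30. Dut, which hydrolyses dUTP, was the lowest of these, with 212, 285 and 208 CPM against 331, 445 and 342 CPM (-0.73 ± 0.20, adjusted p = 0.012, but 0.0633 without lot 26 and 0.122 without lot 30). Of 28 chromatin and tubulin genes 1 was higher and 3 lower (4 and 13 with the block). The one higher was the tubulin Tubb6, with 58.6, 40.4 and 65.7 CPM against 15.2, 12.2 and 14.9 CPM (1.89 ± 0.27, adjusted p = 1.2e-04). Spc25, Dut and Tubb6 kept this order in cells with fewer than 2 cycle genes. In the rest of the stroma and of the epithelium they were at 22.8 and 7.84, 156 and 248, and 17.4 and 3.87 CPM, while Gas2l3 was at 0.807 and 0.735 CPM.

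Of 28 genes of ribosome biogenesis and growth 20 were lower in the cycling stroma than in the cycling epithelium, against 16.5% of all genes tested, and 8 were not called (25 lower and 2 higher with the block; DESeq2 called 21 lower and 1 higher). The lower ones numbered 17 without lot 26, 18 without lot 29 and 10, beside 1 higher, without lot 30. Mycn, the N-MYC factor of progenitor growth, had 19.1, 21.9 and 21.0 CPM in the stroma and 55.4, 52.7 and 52.5 CPM in the epithelium (log2 fold change -1.43 ± 0.08, adjusted p = 2.5e-08). The glycolytic enzyme Eno1 had 317, 384 and 301 CPM against 588, 614 and 588 CPM (-0.90 ± 0.12, adjusted p = 7.3e-05), and Pkm, the pyruvate kinase, 387, 451 and 443 CPM against 644, 713 and 799 CPM (-0.81 ± 0.12, adjusted p = 1.1e-04). The transferrin receptor Tfrc averaged 19.6 ± 1.28 against 34.6 ± 1.16 CPM. These 4 genes had the largest changes among those called in the list at 20 CPM or more and with the same sign in 3 of 3 lots. Cells with fewer than 2 cycle genes showed the same order. Mycn was at 23.4 ± 0.306 CPM in the rest of the stroma and 64.6 ± 2.86 CPM in the rest of the epithelium, and Pkm at 421 ± 36.3 and 708 ± 51.0 CPM. Cycling epithelial cells were deeper than the members, with median UMIs of 16707, 14213 and 17513.

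Of the 19 tested CDK inhibitors, D cyclins and relatives 5 were higher and 3 lower in the cycling stroma than in the cycling epithelium (8 and 6 with the block; 2, 4 and 1 higher without lot 26, 29 and 30). Over all genes tested in this contrast 17.1% were higher and 16.5% lower, and 26.4% and 27.8% with the block. Cdkn1a had 18.6, 21.9 and 23.6 CPM against 52.5, 46.6 and 52.2 CPM (log2 fold change -1.30 ± 0.11, adjusted p = 7.7e-07), and Cdkn1c 1049, 1002 and 1110 CPM against 1714, 1586 and 1678 CPM (-0.72 ± 0.06, adjusted p = 1.2e-06). Both inhibitors were lower in the stroma and kept the call in each setting tried. Cells with fewer than 2 cycle genes showed the same order for both. Cdkn1a was at 34.5 ± 2.96 CPM in the rest of the stroma and 96.5 ± 7.84 CPM in the rest of the epithelium, and Cdkn1c at 1469 ± 33.1 and 2189 ± 52.1 CPM. Ccng2 had 34.0, 31.4 and 33.9 CPM against 21.1, 15.4 and 22.3 CPM (0.68 ± 0.14, adjusted p = 0.0016). Ccnd2 had 338, 262 and 354 CPM against 251, 168 and 235 CPM (0.48 ± 0.13, adjusted p = 0.01, but 0.0505 without lot 26 and 0.0835 without lot 30).

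**Figure D5:**
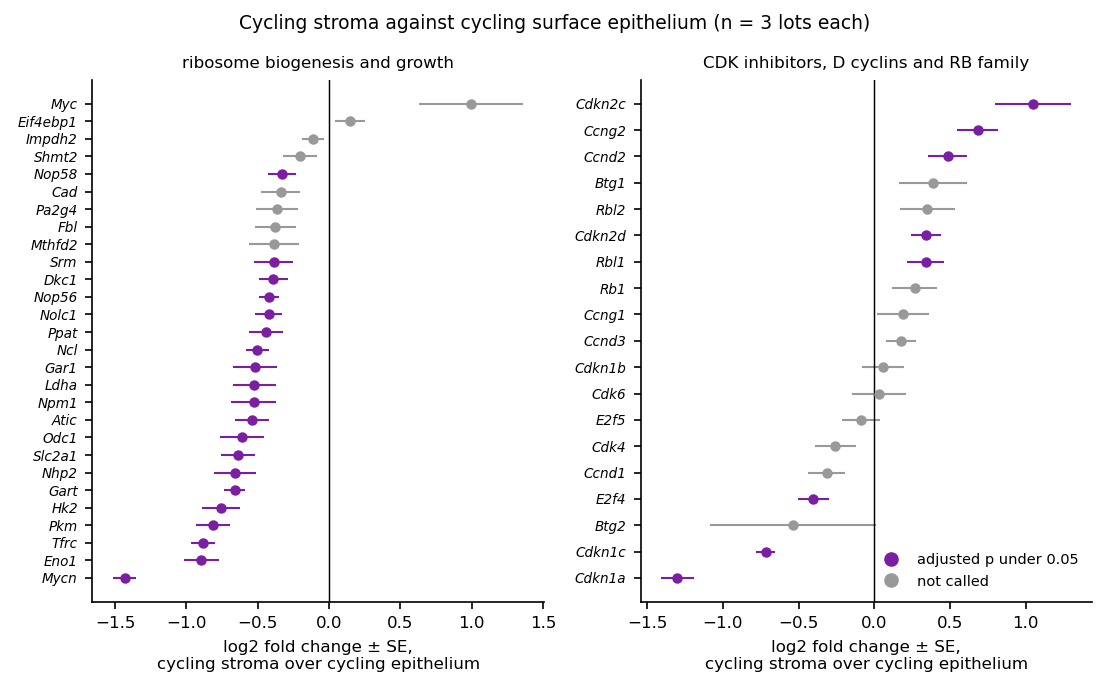
Log2 fold change ± SE of the members over cycling surface epithelium for 28 genes of ribosome biogenesis and growth and for 19 CDK inhibitors, D cyclins and relatives (edgeR, n = 3 lots in each class). Coloured points have an adjusted p under 0.05, which holds for 20 growth genes, all of them lower in the stroma, and for 8 of the other list.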

How the data were processed

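FOSCs of 3 lots were measured. The authors found barcodes with UMI-tools, aligned reads to GRCm38 with STAR 2.7 and counted UMIs per gene with featureCounts 2.0.1, and the deposited values are raw UMI counts per gene and cell. The strand setting and annotation release are not given in the sources used here. The tables list 18738 genes, 17460 of them in all 3.

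The members and gene lists were chosen with earlier results of these data known. Cells were filtered and gated as described above, and doublets called per lot by Scrublet (scanpy 1.11.5, expected rate 8%) were kept, and removed in an alternative. Counts were summed per class and lot, since cells are not replicates, and tested with edgeR 4.0.16 in R 4.3.3 (quasi-likelihood test after TMM scaling and filterByExpr; p-values adjusted by Benjamini-Hochberg across every gene in the fit, with calls at 0.05). DESeq2 1.42.0 was an alternative, as were other normalization, no low-count filter, the lot as a block, stricter cell filters and gates, cells of 8000 to 20000 UMIs, thinned counts and each lot left out. Each lot is a separate pool of litters, and p-values of the fits without the block measure the spread between these 3 pools. Those with the lot as a block measure the spread of the difference between classes within lots.

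Both classes of a lot come from 1 pool of cells, which pairs them. Deviations from the class means correlated within lots with r of 0.484, 0.500 and 0.464 over 13024 genes. On simulated data for the members against the rest, with 12452 genes, 92% of 100 genes changed by a log2 of 1 were recovered. Of 100 changed by 0.6, 52% were, and 8.28% of 157 calls were false. For the interaction, with 12846 genes, these shares were 66% and 13%, and 9.20% of 87 calls were false. The simulation drew each sum independently and left this pairing out, so its rates do not describe paired data. Named are the 9 rule genes and Itga8, up to 4 genes per list with the largest change past the threshold at 20 CPM or more and of the same sign in 3 lots, 10 such genes outside the lists in each direction, and up to 10 for the interaction. Others are marked as chosen after their values were seen. Promoters are from RefSeq (GRCm38.p6) and overlaps from GENCODE. Some items that these rules pick are not reported here.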

Additional observations from a re-analysis of the deposited data

How the results depend on the processing

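Depth differed between members and rest, and every test rests on 3 lots. The cycling share was 34.8% when 3 cycle genes were asked for, 33.6% when the rule was applied to thinned counts, 53.6% in cells of 8000 to 20000 UMIs and 50.4% with 2 UMIs each of Tcf21 and Nr2f2. Genes higher in the members than in the rest numbered 750, but 2293 with the lot as a block and 413 to 592 with a lot left out. Genes lower numbered 218, but 1914 with the block, 475 for 3 or more against 0 cycle genes, 406 without doublets, 565 in cells of 8000 to 20000 UMIs, 112 on thinned counts and 14 to 132 with a lot left out. The interaction had 68 genes higher and 62 lower with the block, 1 lower by DESeq2, and 0 to 2 lower with a lot left out. Genes of the 5 lists read against the epithelium numbered 27 higher and 32 lower, but 71 and 56 with the block. The higher ones were 43 in cells of 8000 to 20000 UMIs, 15 on thinned counts and 8 to 42 with a lot left out, and the lower ones 14 to 30 with a lot left out. The only change of direction was that of Ebf1, to -0.40 on thinned counts. Causes were not tested. Of the 15 genes that the naming rule picks from the lists outside the cycle lists, 15 kept their call with the block, 13 by DESeq2, 9 on thinned counts, 5 without lot 26, 11 without lot 29 and 1, Cdkn2d, without lot 30. Of the values for single genes and lists under all settings, 1191 kept direction and side of the threshold, 112 lost a call, 2 gained one and 144 counts of list genes moved by over 1.5 times. For the main comparisons, 60 values stayed within these limits and 27 moved beyond them.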
